A study of Homo sapiens with 16 samples.

Results

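The genes PSMA5, PSMB2, PSMB4, PSMD1, PSMD4, PSMD14 and PSME4, which encode subunits and an activator of the proteasome, were followed through Ribo-Seq and mRNA-Seq of ER-stressed cells. The 7 genes were chosen by symbol, with the transcript that had the most mRNA-Seq counts standing for each gene, and they are 7 of the 10970 transcripts tested in both assays. Other proteasome genes were not analysed here. The cells were HEK293T, an established human embryonic kidney line with SV40 large T antigen. For 1 hr they received nothing, tunicamycin (Tm) at 1 µg/ml, the same Tm plus ISRIB at 200 nM, or ISRIB at 200 nM without Tm. All cells were given cycloheximide before lysis. There were 2 biological replicates, a and b, for each of these 4 treatments. RNase digestion of one part of a lysate left the ribosome-protected fragments (RPFs) that Ribo-Seq counts, and the other part gave the RNA for mRNA-Seq.

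The proteasome degrades proteins that carry ubiquitin chains. Its core particle is a barrel of stacked alpha and beta rings, and the proteolytic sites lie on the inner face of the beta rings. The regulatory particle caps the barrel, where it binds ubiquitin chains, removes them and feeds the unfolded substrate into the core. PSMA5 is an alpha-ring subunit, and PSMB2 and PSMB4 are beta-ring subunits. PSMD1 is the large scaffold of the regulatory particle, PSMD4 is a receptor for ubiquitin chains, and PSMD14 is the metalloprotease that cuts the chains from the substrate. PSME4 (PA200) is a very large activator that can cap the core in place of the regulatory particle. Tm blocks N-linked glycosylation in the ER and so triggers the unfolded protein response, one branch of which phosphorylates eIF2α and lowers the translation of most mRNAs. ISRIB makes cells insensitive to that phosphorylation. Proteins that fail to fold in the ER are sent back to the cytosol, where the proteasome degrades them.

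All 7 genes lie on chromosomes 1 and 2 in GENCODE v29 (GRCh38). They could be chosen only among transcripts with an available symbol, 1893 of those tested, so this says nothing about other proteasome genes. For 7 of 7 genes the annotation has a transcript with a coding sequence 20 codons longer than the length counted by the authors. The coordinates below are those of the annotation, whereas the counts were made on hg19. PSMA5 (chr1:109399031-109426427), PSMB2 (chr1:35599544-35641844) and PSME4 (chr2:53864067-53970840) are on the minus strand. PSMB4 (chr1:151399534-151401944), PSMD4 (chr1:151254703-151267479), PSMD1 (chr2:231056864-231172827) and PSMD14 (chr2:161308038-161411717) are on the plus strand. The coding sequences run from 201 residues in 6 coding exons for PSMB2 to 1843 residues in 46 coding exons for PSME4, with 953 residues for PSMD1, 377 for PSMD4, 310 for PSMD14, 264 for PSMB4 and 241 for PSMA5. A processed pseudogene, PSMD4P1 on chromosome 21, is annotated for PSMD4, and reads shared with it cannot be assigned from the counts.

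The start sites are those of annotated transcripts matched by symbol and coding length, whose 5′ ends need not be those of the transcripts counted. The counted length is 20 codons shorter than the coding sequence, so the first codons may lie outside the counted part. Each line shows the 9 bases before and the 12 bases after the start codon, which is in capitals.
PSMA5: accctcgccATGtttcttacccgg
PSMB2: tccgccaccATGgagtacctcatc
PSMB4: gtgactaagATGgaagcgtttttg
PSMD1: ggcgcagccATGatcacctcggcc
PSMD4: ggtggcaagATGgtgttggaaagc
PSMD14: accagaaatATGgacagacttctt
PSME4: cctgggctcATGgagccggccgag
A purine 3 bases before the ATG, a common feature of start sites, is present in 6 of the 7 genes and absent from PSME4, and G follows the ATG in 5 of 7. The annotated 5′ UTR is 704 nt in PSMD14 and holds 3 ATGs upstream of the start site. The other 6 have 5′ UTRs of 21 nt (PSMA5) to 412 nt (PSMB2) with 0 upstream ATGs.

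The joined transcripts hold 3001612 to 11469150 counts per Ribo-Seq library and 8466193 to 24499266 per mRNA-Seq library. The fewest counts of a member in any library were 441 RPFs and 1008 mRNA reads, and 7 of 7 passed the filter on low counts. ATF4, a transcription factor whose translation rises when eIF2α is phosphorylated, served as a check of the treatment labels, with RPF levels of 81.7 and 61.6 CPM (counts scaled to the size of the library, with TMM factors) in untreated cells, 455 and 464 in Tm, 53.7 and 66.3 in Tm + ISRIB, and 45.3 and 43.5 in ISRIB. The kidney progenitor gene SIX2 and the intermediate filament gene NES were detected at low levels, at 5.54 to 8.98 and 3.27 to 4.78 mRNA CPM. The mRNA libraries of ISRIB replicates a and b stood further apart than any other pair, with a chi-square per degree of freedom of 11.07, against 2.04 for the closest mRNA pair and 1.6 to 4.97 for the Ribo-Seq pairs. Results that lean on those libraries are given with that difference beside them.

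To compare the genes with each other, levels were divided by the length counted (CPM per 1000 codons). In untreated cells, the RPF densities of the 6 structural subunits lay between percentile 90.9 (PSMD1) and percentile 97.6 (PSMB2) of all tested transcripts, and that of PSME4 lay at percentile 54.2. In bulk lysates, fewer cells and less RNA per cell cannot be told apart, and each level is relative to the total of its library. Over the 8 Ribo-Seq libraries, the mean RPF density was 2478 for PSMB2, 2027 for PSMB4, 1264 for PSMA5, 996.3 for PSMD4, 879 for PSMD14, 628.1 for PSMD1 and 76.66 for PSME4. The ranges of neighbours in this order did not overlap, except for PSMD4 and PSMD14, which kept the order in 7 of 8 libraries. The 3 core subunits therefore had higher RPF densities than the 3 regulatory particle subunits in 8 of 8 libraries, and PSME4 was lower than PSMD1 by 7.28-fold to 9.04-fold.

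The order of mRNA densities was different. The mean mRNA density was 1577 for PSMB4, 1064 for PSMA5, 713.6 for PSMD4, 678.6 for PSMB2, 601 for PSMD14, 518.4 for PSMD1 and 155.4 for PSME4. The ranges of PSMD4, PSMB2, PSMD14 and PSMD1 overlapped between neighbours, although within a library PSMD4 was above PSMB2 in 5 of 8, PSMB2 above PSMD14 in 7 of 8 and PSMD14 above PSMD1 in 8 of 8, while PSMB4, PSMA5 and PSME4 stood clear of theirs. PSMB2 was thus the densest of the 7 in RPFs, whereas in mRNA its range overlapped those of the regulatory particle subunits PSMD4 and PSMD14.

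The ratio of RPF to mRNA CPM in the same lysate shows this difference directly, although the ratio is relative to the totals of each assay. The ratio of PSMB2 was 3.89 and 3.61 in untreated cells, which is at percentile 93.1 of the tested transcripts, and was 3.18 to 3.96 over all 8 lysates. For PSMA5, PSMB4, PSMD1, PSMD4 and PSMD14 the ratio was 1.05 to 1.64 over all lysates, and neighbours in their order overlapped. The ratio of PSME4 was 0.426 and 0.401 in untreated cells, at percentile 12.8, against a median of 1.022 over all tested transcripts. PSME4 was below the other 6 genes in every lysate, by at least 1.57-fold.

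**Figure D1:**
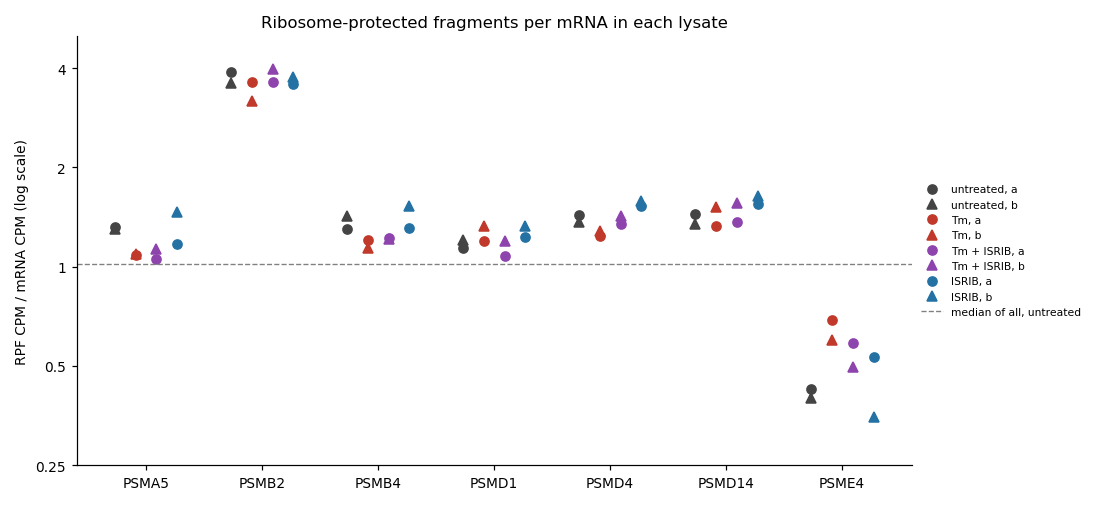
RPF CPM divided by mRNA CPM of the same lysate (log scale) for each gene, with circles for replicate a, triangles for replicate b and colors for the treatments. PSMB2 lies between 3.18 and 3.96 in all lysates, and PSME4, the only gene below the median of all transcripts (dashed line, 1.022), is at 0.426 and 0.401 in untreated cells and at 0.688 and 0.601 in Tm.

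The first comparison asked which of the genes changed upon ER stress, in Tm against untreated cells, at an FDR of 0.1 in edgeR's quasi-likelihood test. All changes are relative to the scaled total of each library, so a fall in translation shared by all mRNAs would not show in RPFs. For RPFs, 13.5% of all tested transcripts passed the test (694 up and 791 down), and 1 of the 7 genes did, PSMD1. For mRNA, 11% of all transcripts passed (721 up and 488 down), and 2 of the 7 did, PSMA5 and PSME4. For translational efficiency, the change in RPFs relative to that in mRNA, 15.9% of all transcripts passed (790 up and 956 down), and 1 of the 7 did, PSME4. The median log2 fold change of the 7 genes was 0.05 in RPFs, 0.10 for mRNA and -0.15 for translational efficiency, beside medians of -0.008, -0.003 and -0.005 over all tested transcripts. Scaled by total counts instead, the direction of the calls over all transcripts shifted to 1069 up and 539 down in RPFs, 479 up and 654 down in mRNA, and 1321 up and 624 down in translational efficiency. The log2 fold changes of the 7 genes ranged from -0.17 to 0.22 in RPFs, -0.46 to 0.32 in mRNA and -0.27 to 0.65 in translational efficiency. Each quantity thus had log2 fold changes of both signs, but only mRNA had calls in both directions. No gene passed the test in RPFs and mRNA together.

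**Figure D2:**
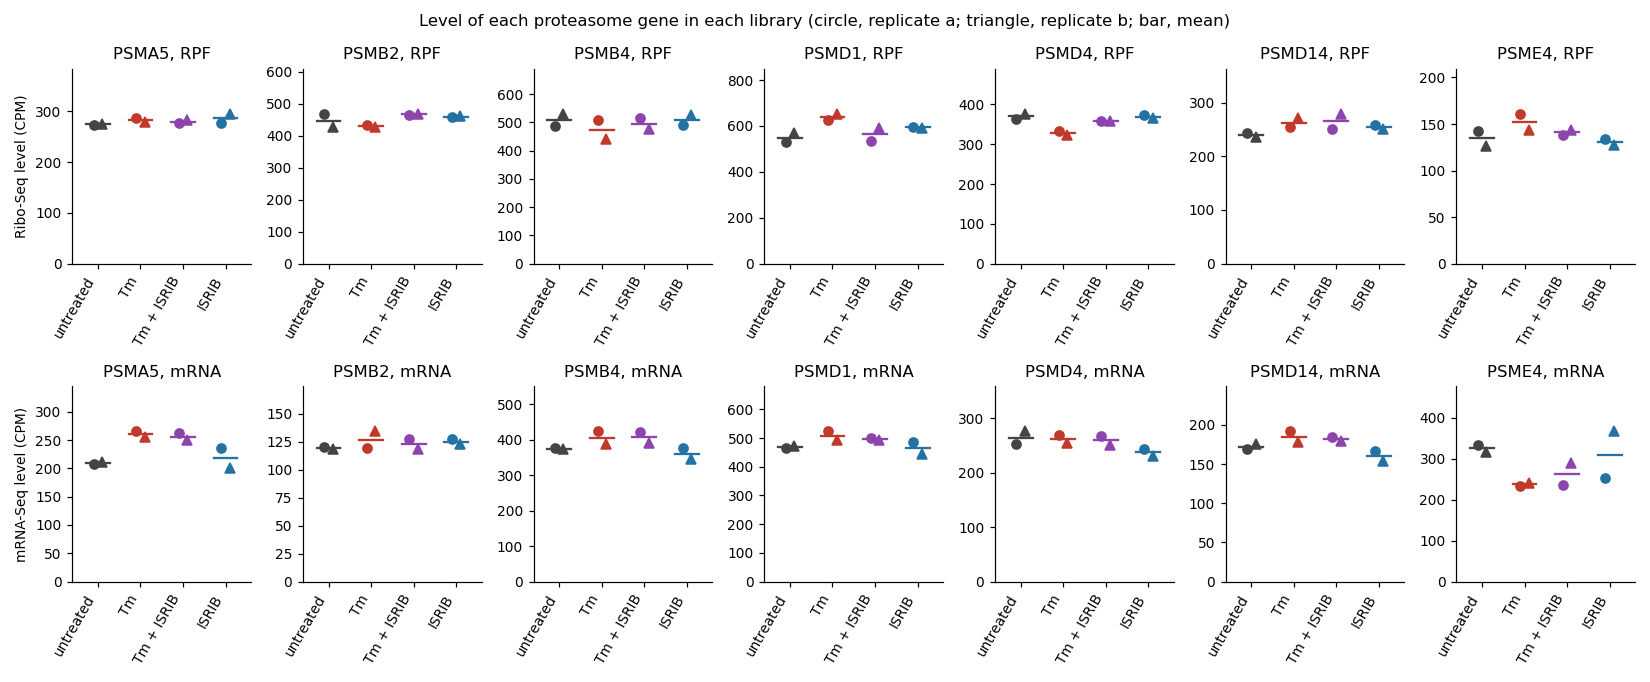
TMM-scaled CPM of each gene in each library on linear axes that start at 0, RPFs in the upper row and mRNA in the lower row, with circles for replicate a, triangles for replicate b and bars for the mean. PSMD1 RPFs are highest in both Tm libraries (626.3 and 653.7), PSMA5 mRNA is high in both Tm and both Tm + ISRIB libraries, and the PSME4 mRNA levels of the ISRIB libraries (252.2 and 366.4) are far apart.

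Among the core subunits, PSMA5 rose in mRNA but not detectably in RPFs. PSMA5 mRNA was 207.4 and 211.1 CPM in untreated cells, 265.3 and 255.6 in Tm, 263.1 and 249.7 in Tm + ISRIB, and 236.0 and 201.2 in ISRIB. The Tm and Tm + ISRIB libraries lay above all untreated and ISRIB libraries. The mRNA log2 fold change was 0.32 in Tm (SE 0.08, edgeR adjusted p = 0.0566), which is 24.5% higher, and 0.29 in Tm + ISRIB (SE 0.08, edgeR adjusted p = 0.0539). PSMA5 RPFs were 273.3 and 274.8 CPM in untreated cells, 287.0 and 278.7 in Tm, 276.8 and 282.3 in Tm + ISRIB, and 276.2 and 295.3 in ISRIB, a range of 1.08-fold over the 8 libraries. The RPF log2 fold change in Tm was 0.05 with a 95% interval of -0.10 to 0.19. The log2 fold change of translational efficiency was -0.27 in Tm (SE 0.11, edgeR adjusted p = 0.117) and -0.26 in Tm + ISRIB (edgeR adjusted p = 0.153), and neither passed the test. The change in Tm passed with the untreated and Tm libraries alone (edgeR adjusted p = 0.069) and without ISRIB a (0.045) or ISRIB b (0.053), at -0.26 to -0.27.

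The mRNA call of PSMA5 in Tm was lost when any of the 4 untreated or Tm lysates was left out, with edgeR adjusted p-values of 0.197 without untreated a, 0.303 without untreated b, 0.305 without Tm a and 0.211 without Tm b, and log2 fold changes of 0.29 to 0.34. The call in Tm + ISRIB was lost without any one of the untreated, Tm or Tm + ISRIB lysates, at log2 fold changes of 0.26 to 0.33. There too the mRNA calls over all transcripts fell. PSMA5 mRNA differed by 0.23 on the log2 scale between the 2 ISRIB replicates. Without ISRIB a or ISRIB b its change in Tm was as large, at 0.32 and 0.32 (edgeR adjusted p = 0.0024 and 0.0026), as it was with the untreated and Tm libraries alone (0.32, edgeR adjusted p = 4.2e-04). Its mRNA change in Tm exceeded that of 86.8% of the 5994 tested transcripts shorter than 500 codons.

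PSMB2 and PSMB4 did not pass the test in either assay. PSMB2 RPFs were 467.2 and 427.8 CPM in untreated cells, 433.5 and 426.0 in Tm, 464.4 and 469.3 in Tm + ISRIB, and 457.4 and 462.0 in ISRIB. PSMB4 RPFs were 486.3 and 530.8 in untreated cells, 508.4 and 439.7 in Tm, 515.4 and 475.2 in Tm + ISRIB, and 492.0 and 524.7 in ISRIB. The Tm libraries overlapped the untreated ones for both genes. The RPF log2 fold change in Tm was -0.06 for PSMB2 (95% interval -0.20 to 0.08) and -0.10 for PSMB4 (-0.25 to 0.06). In mRNA the log2 fold changes in Tm were 0.09 for PSMB2 (-0.07 to 0.26) and 0.11 for PSMB4 (-0.05 to 0.28). The changes in translational efficiency in Tm were -0.15 for PSMB2 (-0.37 to 0.07) and -0.21 for PSMB4 (-0.46 to 0.03).

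Among the regulatory particle subunits, PSMD1 rose in RPFs in Tm and not when ISRIB was added. PSMD1 RPFs were 530.2 and 568.6 CPM in untreated cells, 626.3 and 653.7 in Tm, 536.2 and 589.5 in Tm + ISRIB, and 596.5 and 592.4 in ISRIB. Both Tm libraries lay above the other 6, and the Tm + ISRIB libraries overlapped the untreated ones. The RPF log2 fold change was 0.22 in Tm (SE 0.07, edgeR adjusted p = 0.0430), which is 16.4% higher relative to the scaled library total. It was 0.03 in Tm + ISRIB (95% interval -0.10 to 0.17). Between Tm + ISRIB and Tm, RPFs fell by 0.18 on the log2 scale (SE 0.07, edgeR adjusted p = 0.0804). The interaction, the change that Tm made in the presence of ISRIB minus the change it made without, was -0.30 (SE 0.10, edgeR adjusted p = 0.0809).

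PSMD1 mRNA was 464.6 and 470.8 CPM in untreated cells, 522.7 and 491.8 in Tm, 499.1 and 492.8 in Tm + ISRIB, and 486.2 and 445.5 in ISRIB. The mRNA log2 fold change in Tm, 0.12 (95% interval -0.03 to 0.27), and the change in translational efficiency, 0.10 (-0.11 to 0.32), did not pass the test. The RPF call of PSMD1 in Tm was lost without untreated a (edgeR adjusted p = 0.141), Tm a (0.104) or Tm b (0.259). The call between Tm + ISRIB and Tm was lost in DESeq2 (adjusted p = 0.111) and without Tm a (edgeR adjusted p = 0.147), Tm b (0.348), Tm + ISRIB a (0.511, with a log2 fold change of -0.12), ISRIB a (0.106) or ISRIB b (0.106). The interaction was lost without untreated a (edgeR adjusted p = 0.135), Tm a (0.11), Tm b (0.26), Tm + ISRIB a (0.369), ISRIB a (0.234) or ISRIB b (0.203). The direction was kept in each of these fits.

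PSMD4 and PSMD14 moved in opposite directions in RPFs, and neither passed the test. PSMD4 RPFs were 363.3 and 377.0 CPM in untreated cells, 333.3 and 324.4 in Tm, 359.2 and 358.7 in Tm + ISRIB, and 372.7 and 364.9 in ISRIB. Both Tm libraries were the lowest of the 8, with a log2 fold change of -0.17 (SE 0.07, edgeR adjusted p = 0.126, and 0.0944 without untreated a). PSMD14 RPFs were 244.2 and 235.6 in untreated cells, 254.4 and 271.2 in Tm, 251.0 and 279.5 in Tm + ISRIB, and 258.9 and 251.5 in ISRIB. Its 2 untreated libraries were the lowest of the 8, and the log2 fold change was 0.13 in Tm (95% interval -0.03 to 0.29), 0.15 in Tm + ISRIB (-0.004 to 0.30) and 0.09 in ISRIB (-0.06 to 0.24). In mRNA, PSMD4 changed by -0.02 in Tm (95% interval -0.17 to 0.14) and PSMD14 by 0.10 (-0.05 to 0.25). PSMD14, the only gene of the 7 with annotated upstream ATGs, had a change in translational efficiency of 0.03 in Tm (-0.19 to 0.25), and PSMD4 one of -0.15 (-0.36 to 0.05).

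**Figure D3:**
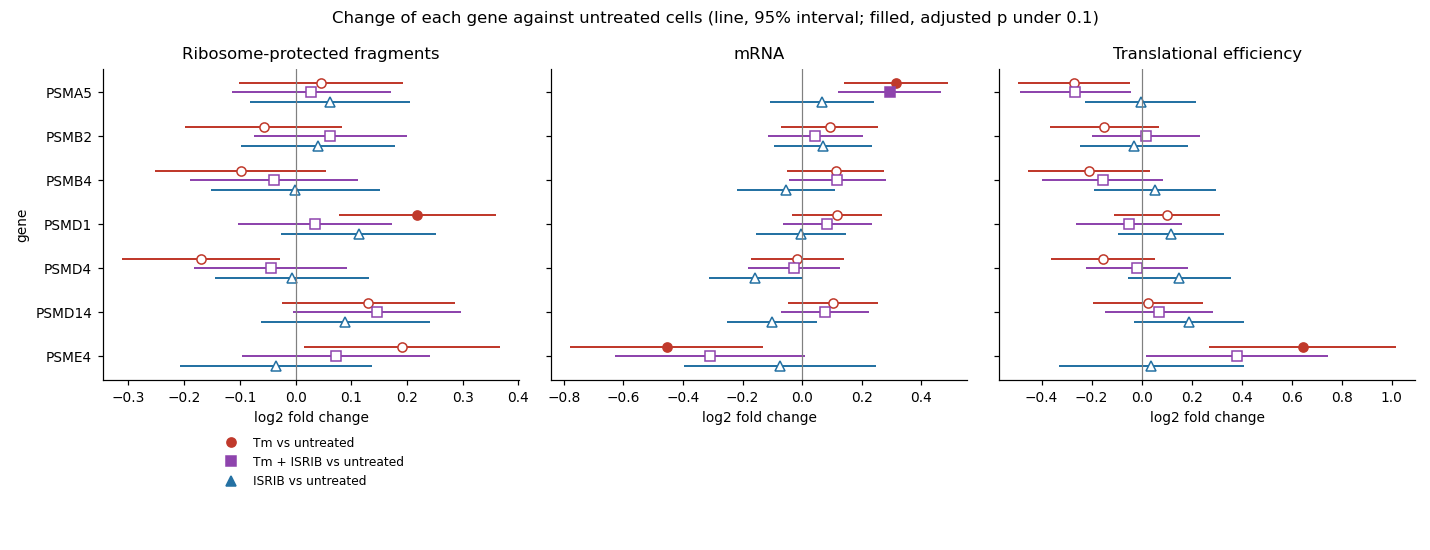
Log2 fold changes against untreated cells (x axis) with 95% intervals for each gene (y axis), in RPFs, mRNA and translational efficiency, with red circles for Tm, purple squares for Tm + ISRIB and blue triangles for ISRIB. Filled symbols passed an FDR of 0.1, which are PSMD1 in RPFs, PSMA5 and PSME4 in mRNA, and PSME4 in translational efficiency.

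The activator PSME4 had the largest changes of the 7 genes in Tm, in mRNA and in translational efficiency. PSME4 mRNA was 333.8 and 316.4 CPM in untreated cells, 234.4 and 239.7 in Tm, 236.1 and 288.4 in Tm + ISRIB, and 252.2 and 366.4 in ISRIB. The Tm libraries were below both untreated ones, and the ISRIB libraries spanned the untreated levels. The mRNA log2 fold change in Tm was -0.46 (SE 0.15, edgeR adjusted p = 0.0982), a decrease of 27.1%, and that in Tm + ISRIB was -0.31 (95% interval -0.63 to 0.01). PSME4 RPFs were 142.2 and 126.8 CPM in untreated cells, 161.2 and 144.1 in Tm, 138.5 and 143.6 in Tm + ISRIB, and 134.3 and 127.9 in ISRIB. Both Tm libraries exceeded the untreated ones, with a log2 fold change of 0.19 (SE 0.09, edgeR adjusted p = 0.173, and 0.0776 with total-count scaling or 0.0580 without untreated a).

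The RPF to mRNA ratio of PSME4 was 0.426 and 0.401 in untreated cells, 0.688 and 0.601 in Tm, 0.587 and 0.498 in Tm + ISRIB, and 0.533 and 0.349 in ISRIB. The Tm lysates lay above all others, and the ISRIB lysates lay on both sides of the untreated ones. Translational efficiency rose in Tm by 0.65 on the log2 scale (SE 0.18, edgeR adjusted p = 0.0263), which is 1.56-fold, and its change in Tm + ISRIB was 0.38 (95% interval 0.02 to 0.74, edgeR adjusted p = 0.216). The interaction in translational efficiency was -0.30 (95% interval -0.83 to 0.22), so that a difference between the effects of Tm with and without ISRIB was not detectable.

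The mRNA call of PSME4 was lost without any one of the untreated, Tm or Tm + ISRIB lysates, at log2 fold changes of -0.49 to -0.42. The mRNA calls over all transcripts fell in each of these fits too, so the losses are not particular to PSME4. The call in translational efficiency was lost without untreated b (edgeR adjusted p = 0.15), Tm a (0.254) or Tm b (0.106), with log2 fold changes of 0.54 to 0.74. PSME4 mRNA also differed by -0.54 on the log2 scale between ISRIB a and ISRIB b, which had the same treatment. That is larger in size than its change in Tm, and 5.4% of all tested transcripts had a lower value. The libraries of a fit share one estimate of the spread, and without ISRIB a or ISRIB b the change in Tm was as large, at -0.45 and -0.46 in mRNA (edgeR adjusted p = 0.0038 and 0.0027) and 0.64 and 0.65 in translational efficiency (0.0015 and 0.0012). With the untreated and Tm libraries alone, the log2 fold changes were -0.45 in mRNA (edgeR adjusted p = 1.4e-05) and 0.65 in translational efficiency (1.4e-04).

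The length of the coding sequence moved with these changes over all transcripts. For the 595 tested transcripts of at least 1500 counted codons, among them PSME4, the median log2 fold change in Tm was -0.18 in mRNA, 0.10 in RPFs and 0.29 in translational efficiency. For the 2334 transcripts under 250 codons, among them PSMA5, PSMB2 and PSMB4, the medians were 0.05, -0.03 and -0.09. The medians of the length classes between them followed in order in mRNA and translational efficiency. Among the 595 long transcripts, 26.39% rose in translational efficiency in Tm, compared with 3.94% of those under 250 codons. The difference between ISRIB a and ISRIB b in mRNA had the same trend, with medians of -0.22 in the longest class and 0.14 in the shortest.

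Within the long transcripts, the change in translational efficiency of PSME4 exceeded that of 83% of transcripts, compared with 93.6% of all tested transcripts, and its mRNA change was above that of 14.5%, compared with 6%. In Tm + ISRIB the medians of the long class were -0.18 in mRNA and 0.33 in translational efficiency, close to those in Tm. The part of length in the changes of PSME4 and PSMA5 was not tested.

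**Figure D4:**
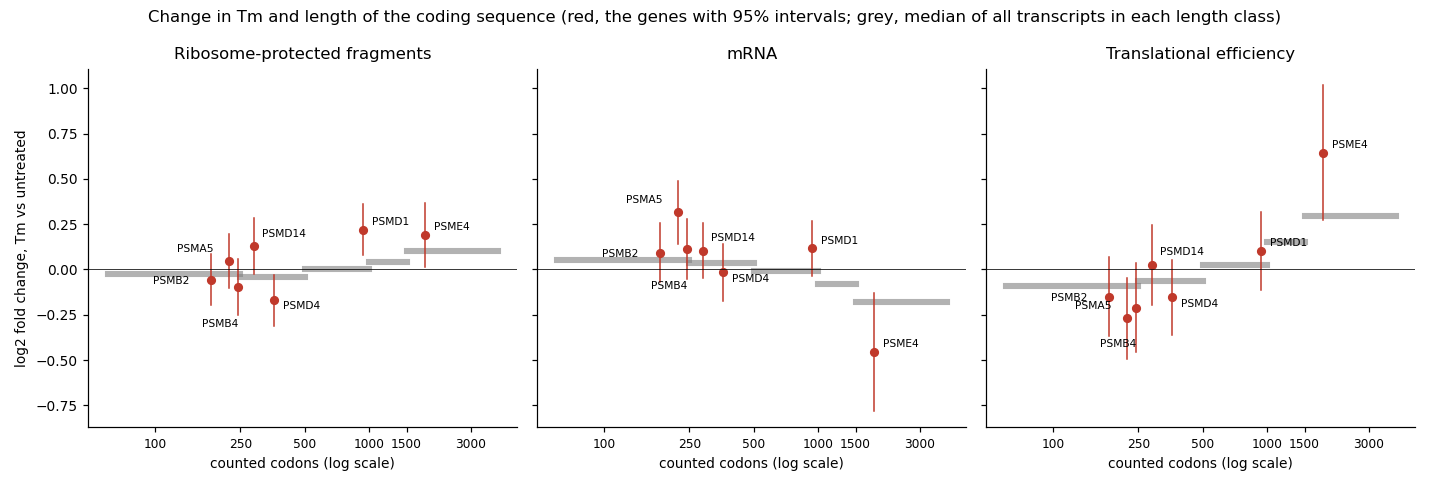
Log2 fold change in Tm against untreated cells (y axis) by number of codons counted (x axis, log scale), with the 7 genes and their 95% intervals in red. Grey bars show the median of all tested transcripts in each of 5 length classes, the outer classes being drawn to the plot's limits, and run from 0.05 to -0.18 in mRNA and from -0.09 to 0.29 in translational efficiency with rising length.

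The core was then compared with the regulatory particle and the activator. In log2 CPM per 1000 codons, the mean of the 3 core genes exceeded the mean of the 3 regulatory particle genes in RPFs by 1.23 and 1.20 in untreated cells, 1.18 and 1.05 in Tm, 1.25 and 1.13 in Tm + ISRIB, and 1.14 and 1.23 in ISRIB. In mRNA the same difference was 0.73 and 0.67 in untreated cells, 0.76 and 0.85 in Tm, 0.83 and 0.79 in Tm + ISRIB, and 0.83 and 0.80 in ISRIB. The Tm libraries lay below the untreated ones in RPFs and above them in mRNA, but libraries of the other treatments reached the same values. The mean log2 fold change in Tm of the core minus that of the regulatory particle was -0.10 in RPFs, 0.10 for mRNA and -0.20 for translational efficiency. The pooled SD of the difference between replicates was 0.07 in RPFs and 0.04 for mRNA. The value for translational efficiency, 0.08, was combined from these as if the assays varied independently, although both come from the same lysates. With 2 libraries against 2 an exact permutation test cannot give a p below 0.33, and genes are not replicates, so no test was made. With medians over the members in place of means, the differences were -0.19 in RPFs and 0.008 in mRNA.

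PSME4 was below the mean of the regulatory particle in every library. Its mRNA, in log2 CPM per 1000 codons, differed from that mean by -1.69 and -1.83 in untreated cells, -2.34 and -2.22 in Tm, -2.29 and -1.95 in Tm + ISRIB, and -2.09 and -1.44 in ISRIB. In RPFs the difference was -3.33 and -3.53 in untreated cells, -3.21 and -3.41 in Tm, -3.38 and -3.43 in Tm + ISRIB, and -3.51 and -3.55 in ISRIB. The Tm libraries were apart from the untreated ones in mRNA and overlapped them in RPFs.

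**Figure D5:**
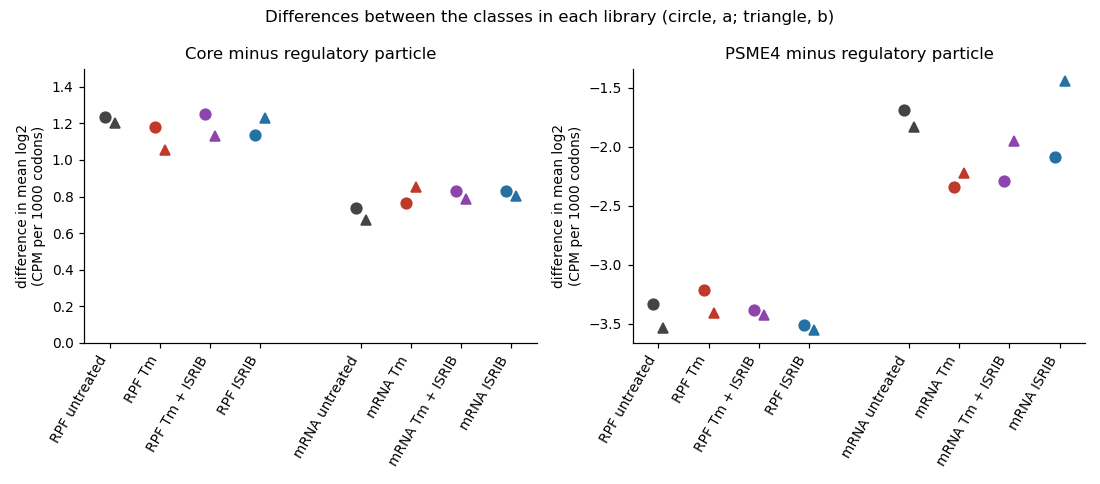
Difference between class means in log2 CPM per 1000 codons (y axis) in each Ribo-Seq and mRNA-Seq library, for the core minus the regulatory particle (left) and PSME4 minus the regulatory particle (right), with circles for replicate a and triangles for b. The core is higher in every library, by 1.05 to 1.25 in RPFs and 0.67 to 0.85 in mRNA, and the mRNA of PSME4 varies from -2.34 to -1.44.

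The effect of ISRIB was measured with Tm and alone. Against untreated cells, 0 of the 7 genes passed in Tm + ISRIB in RPFs, beside 2.65% of all transcripts, and the 7 log2 fold changes were between -0.04 and 0.15. In the same comparison 1 of 7 passed in mRNA, PSMA5, beside 14.2% of all transcripts, and 0 of 7 in translational efficiency, beside 8.96%. At an unadjusted p under 0.05, these counts were 0 in RPFs and 2 in translational efficiency (PSMA5 and PSME4), and DESeq2 also called 0 in both. The comparisons with untreated cells share the untreated libraries.

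With ISRIB alone, 0 of the 7 genes passed in edgeR in RPFs, mRNA or translational efficiency, beside 0.0182%, 1.15% and 0.191% of all transcripts. The number at an unadjusted p under 0.05 was 0 in all 3 quantities, and DESeq2 called 0. The RPF log2 fold changes in ISRIB ranged from -0.04 (PSME4) to 0.11 (PSMD1), with a widest 95% interval of -0.21 to 0.14 for PSME4. The mRNA changes ranged from -0.16 (PSMD4, 95% interval -0.31 to 3e-04) to 0.07 (PSMB2), and that of PSME4 was -0.07 (-0.40 to 0.25). These mRNA and translational efficiency results lean on the mRNA libraries of ISRIB a and b, the pair furthest apart (chi-square per degree of freedom 11.07). PSME4 mRNA differed by -0.54 on the log2 scale between them, so the absence of calls does not show an absence of change.

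Directly between Tm + ISRIB and Tm, 1 of the 7 passed in RPFs, PSMD1, beside 17.7% of all transcripts. In mRNA 0 of 7 passed in edgeR, as did 0% of all transcripts, of which 198 had an unadjusted p under 0.05. In translational efficiency 0 of 7 passed, beside 6.11%. None of the 7 had an unadjusted p under 0.05 in mRNA or translational efficiency, and DESeq2 called 0 in all 3 quantities. For the interaction, 1 of 7 passed in RPFs, PSMD1, beside 6.9% of all transcripts, 0 of 7 in mRNA beside 0%, and 0 of 7 in translational efficiency beside 1.39%. The numbers of genes with an unadjusted p under 0.05 in mRNA and translational efficiency were 0 and 0, and DESeq2 called 0 of the 7 in both, while over all transcripts it called 16 mRNA interactions. The interaction in mRNA and translational efficiency also uses the mRNA libraries of ISRIB a and b, the pair furthest apart (chi-square per degree of freedom 11.07). The absence of calls there does not show that Tm acted alike with and without ISRIB.

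The ubiquitin system around the proteasome was read from a list of 56 genes, of which 50 were tested. In Tm, 3 rose and 3 fell in RPFs (12%, beside 13.5% of all transcripts), 4 rose and 4 fell in mRNA (16%, beside 11%), and 4 rose and 5 fell in translational efficiency (18%, beside 15.9%), with medians of -0.03, 0.01 and -0.08. These shares were near those of all transcripts. In Tm + ISRIB, 1 passed in RPFs (2%, beside 2.65% of all transcripts), 10 passed in mRNA (20%, beside 14.2%) and 7 did in translational efficiency (14%, beside 8.96%). Of the 28 ubiquitin ligases and their adaptors, 2 rose and 0 fell in RPFs (7.14%, beside the same 13.5%), and 2 rose and 2 fell in translational efficiency (14.3%, beside 15.9%). Of the 9 other deubiquitinases, 0 rose and 2 fell in RPFs (22.2%, beside 13.5%). Of the 6 ubiquitin-conjugating enzymes, 1 rose in RPFs (16.7%, beside 13.5%). Of the 6 shuttles and cofactors of ubiquitinated substrates, 1 fell (16.7%, beside 13.5%). Classes of this size are too small to set apart from the share over all transcripts.

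UCHL5, a deubiquitinase bound to the regulatory particle, had log2 fold changes in Tm of -0.07 in RPFs and -0.11 in mRNA, neither past the test. UBQLN4, a shuttle that brings ubiquitinated proteins to the proteasome, had changes of -0.14 in RPFs and -0.05 in mRNA, which did not pass either. DDI2, a protease that activates the transcription factor NRF1 of proteasome genes, fell by 0.39 in mRNA in Tm (SE 0.09, edgeR adjusted p = 0.0413) and rose by 0.56 in translational efficiency (SE 0.15, edgeR adjusted p = 0.0253). Its RPF change in Tm, 0.17 (edgeR adjusted p = 0.402), did not pass. Its mRNA change in Tm + ISRIB was also -0.39 (edgeR adjusted p = 0.0308), while its RPFs were lower than in Tm by 0.41 (a log2 fold change of -0.41, edgeR adjusted p = 0.0246). The mRNA call of DDI2 in Tm was lost without any one of the untreated or Tm lysates, at log2 fold changes of -0.41 to -0.37. Its call in translational efficiency was lost without untreated a, untreated b or Tm b, at 0.56, 0.56 and 0.40. The calls over all transcripts fell in these fits too.

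The ligases UBR4 and UBR3 and the deubiquitinase USP34 rose in translational efficiency in Tm, by 0.66 (edgeR adjusted p = 0.0174), 0.32 (0.0638) and 0.38 (0.0744), and UBR4 also in RPFs, by 0.28 (0.0158). USP34 fell by 0.25 in mRNA (log2 fold change -0.25, edgeR adjusted p = 0.0764), and its RPF change was 0.13 (0.489). The RPF change of UBR3 was 0.24 (edgeR adjusted p = 0.119). The counted lengths of UBR4, UBR3 and USP34, 5164, 1869 and 3527 codons, put all 3 in the longest class. The deubiquitinase USP1 fell by 0.33 in RPFs (log2 fold change -0.33, edgeR adjusted p = 0.0148) and by 0.36 in translational efficiency (-0.36, 0.0480), and its RPFs were higher in Tm + ISRIB than in Tm by 0.48 (edgeR adjusted p = 3.06e-04). The ligase RNF115 and the conjugating enzyme UBE2E1 rose in mRNA, by 0.41 (edgeR adjusted p = 0.0479) and 0.70 (0.0227), and fell in translational efficiency, with log2 fold changes of -0.69 (0.0161) and -0.62 (0.0208). The RPF changes of RNF115 and UBE2E1 in Tm, -0.28 (edgeR adjusted p = 0.243) and 0.08 (0.604), did not pass. USP1, RNF115 and UBE2E1 have 766, 285 and 174 counted codons. In Tm + ISRIB against untreated cells, UBR4 rose in RPFs by 0.35 (edgeR adjusted p = 0.0100) and in translational efficiency by 0.71 (0.0206), and USP34 rose in translational efficiency by 0.44 (0.0546). UBE2E1 and RNF115 fell in translational efficiency there too, with log2 fold changes of -0.73 (edgeR adjusted p = 0.0128) and -0.47 (0.0910), while the changes of UBR3 (0.10) and USP1 (0.11) did not pass.

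Leaving out single lysates also ended calls of these 6 genes. The RPF calls of UBR4 (edgeR adjusted p = 0.236) and USP1 (0.298) were lost without Tm a, where the USP1 change was -0.21 in place of -0.33 in RPFs and -0.21 in place of -0.36 in translational efficiency. In translational efficiency, UBR4 was lost without untreated a (0.159) or Tm a (0.237), USP1 without untreated a (0.292) or Tm a (0.452) and with total-count scaling (0.126), RNF115 without untreated b (0.14) or Tm b (0.13), and UBE2E1 without untreated b (0.144) or Tm a (0.228). The calls of UBR3 and USP34 in translational efficiency were lost without any one of the untreated and Tm lysates, with edgeR adjusted p-values of up to 0.286 and 0.278, and that of UBR3 also with no filter (0.109). The mRNA calls of RNF115 and UBE2E1 were also lost in some fits without 1 lysate, where the log2 fold changes were 0.36 to 0.47 and 0.55 to 0.88. The mRNA call of USP34 was lost without any one of the untreated, Tm and Tm + ISRIB lysates, at -0.28 to -0.22. Without any one of those lysates the mRNA calls over all transcripts fell too, so these losses are not particular to the named genes.

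The profiles of the 7 genes over the libraries had little in common in RPFs. Over the 21 pairs of genes, the median Pearson r of log2 CPM across the 8 Ribo-Seq libraries was 0.069, and it was 0.368 across the 8 mRNA libraries. In mRNA, PSMA5, PSMB4, PSMD1 and PSMD14 had r of 0.825 to 0.947 with each other, and PSME4 had a negative r with the other 6, down to -0.933 with PSMA5. These values describe 8 libraries of 4 treatments, in which genes share the library, its depth and its scaling. Between ISRIB a and ISRIB b, log2 mRNA differed by 0.23 for PSMA5, 0.13 for PSMB4, 0.13 for PSMD1 and 0.12 for PSMD14. The difference was 0.05 for PSMB2, 0.08 for PSMD4 and -0.54 for PSME4. The part of this difference, and of coding length, in the mRNA correlations was not tested. Outside the 7 genes, the named transcripts with RPF profiles nearest to their mean were ADC (r = 0.96, at 1.3 CPM on average), NVL (0.85), COG2 (0.845), ANKRD28 (0.833) and PITHD1 (0.83), and those among the nearest in mRNA were GTF3C3 (0.963), ILF2 (0.954), CRBN (0.952) and ACSL3 (0.952). They were taken from the top of 1893 transcripts with a symbol, the 7 genes included. With the mean of the 7, the genes themselves had r of -0.248 (PSMD4) to 0.696 (PSMA5) in RPFs. These are all below the r of the transcripts named for RPFs, so that mean describes none of the 7 closely. In mRNA their r ran from -0.707 (PSME4) to 0.983 (PSMD14).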

How the data were processed

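For each library the authors deposited raw read counts over coding sequences, by UCSC transcript, neither normalized nor pooled. The submitters' processing notes name CASAVA 1.8, Bowtie 1.0.0, TopHat2 2.0.7 and 2.0.10 and hg19, without their roles, and the counting tool is not given in the sources used here. Counting of reads shared between isoforms or gene copies cannot be repeated. Gene symbols came from the study's source data. Of 19938 transcripts with one identifier in both assays, 19044 with equal counted length were joined, and 10970 passed filterByExpr (10 counts) in both assays.

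RPFs and mRNA were fitted over 8 libraries each, and translational efficiency over 16 as the interaction of treatment and assay, with TMM scaling and glmQLFTest in edgeR 4.0.16 (R 4.3.3). P-values were adjusted by Benjamini-Hochberg over all tested transcripts. SEs were obtained from the size of the log2 fold change and the F statistic. Scripts were tested on simulated data. The common biological coefficient of variation was 5.62% for RPFs and 6.7% for mRNA. Intervals use an estimate of the spread between replicates that all libraries of a fit share and that borrows from the other transcripts. Other scalings, no filter, DESeq2 1.42.0, replicate blocks, fits of the compared groups alone and leaving out each lysate were tried. Positions, 5′ UTRs and start sites came from GENCODE v29. Tables and figures used Python 3.11.15, pandas 2.3.3, numpy 2.4.6 and matplotlib 3.10.9.

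The 7 genes and the pathway list were chosen with earlier results of these data known. Named pathway genes are UCHL5, DDI2, UBQLN4 and up to 3 more in each direction with the smallest adjusted p in RPFs or translational efficiency in Tm. Genes most like the 7 are the 5 with a symbol and the highest Pearson r in each assay, on log2(CPM + 0.5) centred on each gene's mean. One transcript among those with the nearest mRNA profiles is not reported here.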

Additional observations from a re-analysis of the deposited data

Results flagged for a closer look

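The effect of Tm on RPFs differed with and without ISRIB for 1 of the 7 proteasome genes and 1 of the named ubiquitin genes, by edgeR's test of the interaction. For PSMD1 the log2 change in Tm was lower by 0.30 in the presence of ISRIB (interaction -0.30, SE 0.10, edgeR adjusted p = 0.0809). For USP1 it was higher by 0.44 (SE 0.12, edgeR adjusted p = 0.0349). USP1 was named for its fall in Tm, and the interaction uses the same Tm and untreated libraries, so its value is a description. In the ubiquitin list 1 of 50 genes (2%) passed the interaction in RPFs, beside 6.9% of all transcripts. Groups of 2 replicates are too small to look for single outlying libraries.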

How the results depend on the processing

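The 7 calls made for the proteasome genes held in 42 of 43 fits that kept all libraries and changed the scaling, filter, tool, block or groups in the fit, the exception being PSMD1 between Tm + ISRIB and Tm in DESeq2. Each of the 7 was lost without at least 1 lysate, where the lone library of an arm is assumed to vary like the others, and none reversed. Where the mRNA calls of PSMA5 and PSME4 were lost, the mRNA calls over all transcripts fell too.

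Other counts of the 7 genes were 2 in RPFs in Tm with total-count scaling (1 in the main analysis), 0 in RPFs between Tm + ISRIB and Tm in DESeq2 (1), and, with the compared groups alone, 2 in mRNA in Tm + ISRIB (1), 2 in translational efficiency in Tm (1) and 2 in translational efficiency in Tm + ISRIB (0). With 1 lysate left out, the counts ranged from 0 to 2 in RPFs in Tm, 0 to 1 in RPFs between Tm + ISRIB and Tm and in the RPF interaction, 0 to 2 in mRNA in Tm and in Tm + ISRIB, 0 to 1 in mRNA in ISRIB and in the mRNA interaction, and 0 to 2 in translational efficiency in Tm and in Tm + ISRIB. Without a lysate, uncalled changes in Tm crossed 0 for PSMB2 RPFs (-0.11 to 0.0071), PSMD4 mRNA (-0.0762 to 0.0455) and PSMD14 translational efficiency (-0.0684 to 0.12). The core minus the regulatory particle in Tm was -0.19 in RPFs (-0.10) and 0.008 in mRNA (0.10) with medians over the members, and without a lysate -0.165 to -0.034 in RPFs, 0.061 to 0.15 in mRNA and -0.31 to -0.10 in translational efficiency (-0.20).

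Over all transcripts, the counts in RPFs were 1485 in Tm (744 in DESeq2, 637 to 1450 without a lysate), 291 in Tm + ISRIB (84 in DESeq2, 185 with the compared groups alone, 18 to 692 without a lysate), 2 in ISRIB (7 with total-count scaling, 13 with no filter, 4 with the replicate block, 1 with the compared groups alone, 0 to 37 without a lysate), 1945 in Tm + ISRIB against Tm (1002 in DESeq2, 772 to 2324 without a lysate) and 757 in the interaction (337 in DESeq2, 222 to 1176 without a lysate). Over all transcripts, the counts in mRNA were 1209 in Tm (694 in DESeq2, 3162 with the compared groups alone, 0 to 2917 without a lysate), 1558 in Tm + ISRIB (776 in DESeq2, 2952 with the compared groups alone, 982 with letters crossed, 0 to 3302 without a lysate), 126 in ISRIB (214 with no filter, 0 with the compared groups alone, 0 to 905 without a lysate) and 0 in the interaction (19 with no filter, 16 in DESeq2, 0 to 288 without a lysate). Over all transcripts, the counts in translational efficiency were 1746 in Tm (524 to 2276 without a lysate), 983 in Tm + ISRIB (610 in DESeq2, 83 to 1637 without a lysate), 21 in ISRIB (32 with no filter, 41 in DESeq2, 0 with the compared groups alone, 0 to 71 without a lysate), 670 in Tm + ISRIB against Tm (404 in DESeq2, 1028 with the compared groups alone, 71 to 882 without a lysate) and 153 in the interaction (2 to 348 without a lysate). With total-count scaling, the calls over all transcripts up and down changed from 1045 and 900 to 793 and 1316 in RPFs between Tm + ISRIB and Tm, from 907 and 651 to 695 and 913 in mRNA in Tm + ISRIB, from 93 and 33 to 73 and 43 in mRNA in ISRIB, and in translational efficiency from 434 and 549 to 611 and 432 in Tm + ISRIB, from 404 and 266 to 275 and 367 between Tm + ISRIB and Tm and from 105 and 48 to 74 and 55 in the interaction.

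Replicate letters are shared between treatments by name only, with correlations of same-letter deviations of -0.153 to 0.11. The replicate block left the counts of the 7 genes as they were and changed those over all transcripts by less than 1.5 times except in RPFs in ISRIB (4 in place of 2). In mRNA in Tm + ISRIB, where the correlation was -0.153, crossing the letters, an alternative chosen after seeing the data, gave 982 calls in place of 1558. Both assays of a letter share a lysate, and a replicate block by lysate called 1 of the 7 in translational efficiency in Tm, as without it. Depth limits PSME4 most, with 441 RPF counts in its shallowest library.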
